A study of Populus tremula x Populus alba with 14 samples.

Results

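The outer and inner bark of old stems of a hybrid poplar were compared, using 8 of the 14 libraries of the series: 4 of old outer bark and 4 of old inner bark. The trees were wild-type hybrids of Populus tremula and Populus alba from the clone INRA 717-1B4, kept in a greenhouse and outdoors in the growing season. As all stems belong to 1 clone, the stems are not different genotypes. The old stems were 6 to 8 mm in diameter; no treatment was given in the labels. Outer bark is labelled phellem with phellogen, and inner bark secondary phloem with vascular meristem. Libraries were taken by their labelled layer and age, and the outer and inner libraries of the same number were paired. A numbered stem is called a tree here, although the labels do not state that both layers of a number came from 1 tree.

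The bark of a woody stem is built by a pair of meristems. The phellogen, or cork cambium, divides to form phellem, the cork, whose cells deposit suberin and lignin in their walls and die, so that the stem is sealed against water loss and infection. The vascular cambium lies deeper and forms the secondary phloem outward, whose sieve elements carry sugars and whose parenchyma and fibres store reserves and give support. Comparing outer with inner bark asks which transcripts are found mainly on the cork side and which mainly on the phloem side.

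Total counts were between 13419965 and 15980636 in outer bark and between 11944485 and 13209115 in inner bark, and in each of the 4 trees the outer library was the deeper one. The count table holds 41335 genes, named by identifier alone. Of these, 6220 had no count in the 8 libraries and a further 10016 fell under the expression filter, which left 25099 genes tested. Both libraries of tree 1 stood apart from those of trees 2, 3 and 4. Counts of calls, of genes at 4-fold and 16-fold, and the parts of the spread are also given without tree 1. Median differences, the split by level, non-overlap, the consistency rule, chromosomes and neighbours are given only with tree 1 included. No identifier is paired with a gene name here, so the labelled tissues could not be checked against marker genes, and the genes are described by level, layer and tree.

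In old stems 8975 genes, 35.8% of those tested, differed between the layers in an edgeR quasi-likelihood test with trees as blocks (Benjamini-Hochberg adjusted p below 0.05). Outer bark had the higher level for 4554 of them (18.1%) and inner bark for 4421 (17.6%). The near-even split did not fix which layer had more calls: under upper-quartile scaling 4493 calls were on the outer and 4503 on the inner side (17.9% and 17.9%), and under RLE scaling 4674 and 4277 (18.6% and 17.0%). Without tree 1 the counts were 4936 and 4583 (19.2% and 17.8%). No gene called here was called in the opposite direction under any of the alternatives run (0 genes). As these are bulk samples, fewer cells of a type and less RNA per cell cannot be told apart.

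Most of the differences were small. The median difference was 1.78-fold among the outer-higher genes (quartiles 1.39 and 2.72) and 1.81-fold among the inner-higher genes (quartiles 1.37 and 3.04). Of all called genes 5176, or 57.7%, differed by less than 2-fold. A test against a 2-fold change (edgeR glmTreat, adjusted p below 0.05) called 1029 outer-higher and 1037 inner-higher genes, 4.1% and 4.13% of those tested. Only 206 genes with a fitted difference of at least 2-fold were not called, and these were scarce, with a median of 1.58 CPM (counts scaled to a common library size with TMM factors).

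**Figure D1:**
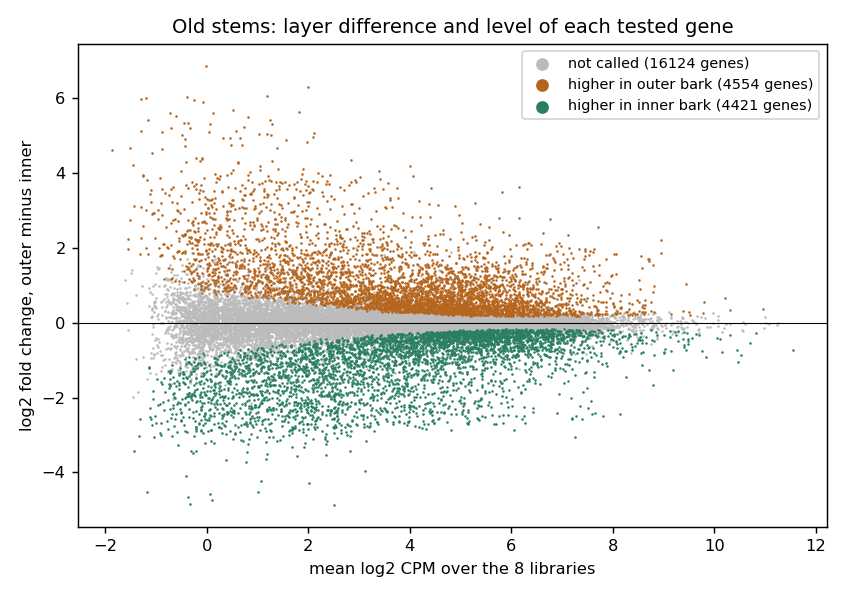
Each point is 1 of the 25099 tested genes, with its mean log2 CPM over the 8 libraries on the x axis and its fitted log2 fold change, outer minus inner, on the y axis; colours mark the 4554 genes higher in outer bark, the 4421 higher in inner bark and the 16124 not called. Small differences were called among abundant genes, and the points above a log2 fold change of 4 lie mostly at low levels on the outer side.

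The share of genes called changed little with level, while the size of the difference fell with it. The tested genes were split into 4 equal groups by mean log2 CPM. In the lowest group, up to 4.00 CPM, 16.4% of genes were higher on the outer and 16.2% on the inner side, by medians of 3.26-fold in both layers. In the highest group, from 40.5 CPM up, the shares were 17.3% and 19.9% and the median differences 1.43-fold and 1.36-fold. Scarce genes need a larger difference to pass the test, so a fall of this kind in the called genes follows in part from the test itself. Above the lowest group, differences of at least 4-fold were more numerous on the inner side in this fit, which includes tree 1. In the highest group 48 genes were at least 4-fold higher in inner bark and 27 in outer bark. In the next group down the counts were 89 and 36, and in the one below that 202 and 143. In the lowest group the order was the other way, with 369 genes in inner and 412 in outer bark. The differences between these counts were not tested, and the split by level was not made without tree 1 or with another filter. Over all levels, the layer with more genes at 4-fold changed with these choices. Without tree 1 there were 977 in outer and 840 in inner bark.

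The layers also differed in how far their genes were restricted to them. At least 4-fold differences were fitted for 618 outer-higher and 708 inner-higher genes, but differences of at least 16-fold for 68 outer-higher and 10 inner-higher genes. Thus 11% of the 4-fold outer genes reached 16-fold, against 1.41% of the 4-fold inner genes. None of these genes was at 0 counts in all libraries of the other layer (0 genes). The difference between the layers in these shares kept its direction in each alternative run, and was wider without tree 1. Without tree 1, the counts at 16-fold were 196 in outer and 17 in inner bark, and without tree 4 they were 119 and 8. With no filter on low counts they were 206 and 35, and with a filter needing 3 libraries instead of 4 they were 167 and 14. Which layer had more genes at 4-fold was not settled: there were 977 in outer and 840 in inner bark without tree 1, 631 and 608 without tree 4, 1265 and 1002 with no filter, and 919 and 785 with the filter needing 3 libraries. In these fits, genes at 0 in the other layer were set to the fold given by a floor of 3 counts over that layer.

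Read tree by tree, more genes reached 16-fold on the outer than on the inner side in trees 2, 3 and 4, while in tree 1 fewer did. The CPM ratio was at least 16-fold towards outer bark for 243 genes in tree 2, 130 in tree 3 and 85 in tree 4. Towards inner bark it was so for 18 genes in tree 2, 14 in tree 3 and 64 in tree 4. In tree 1 the counts were 32 towards outer and 47 towards inner bark. As a share of the ratios of at least 4-fold, the outer side was the higher one in all 4 trees, with 7.34% against 5.97% in tree 1, 27.4% against 2.65% in tree 2, 17.3% against 2.11% in tree 3 and 11.3% against 5.62% in tree 4. Tree 1 also had the fewest ratios of at least 4-fold towards outer bark, 436, against 750 to 886 in the others. Its 787 towards inner bark lay within the 664 to 1139 of the others.

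Genes read almost wholly in outer bark were looked for in the whole table, not only among the tested genes, with a rule chosen after the data had been seen. The rule asked for at least 10 counts in at least 3 of the 4 libraries of one layer and at most 3 counts in all over the 4 libraries of the other. It was met by 78 genes in outer bark and by 3 genes in inner bark. With all libraries scaled to the smallest, since the outer libraries were deeper, it was met by 57 and 2 genes. Of the 78 outer genes, 19 had no count in inner bark (0 counts), where 3 counts over the 4 libraries come to 0.0588 CPM. This limit covers counting error only.

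These outer-restricted genes were scarce and had few reads in tree 1. Their mean levels in outer bark lay between 0.58 and 10.1 CPM. Their median count was 23 in the outer bark of tree 2, 27 in tree 3 and 19 in tree 4, against 2 in tree 1. The outer library of tree 1 had the highest total count of the 8 but also the lowest TMM factor, 0.86. In CPM the medians were 1.60, 1.62 and 1.32 in trees 2, 3 and 4 and 0.146 in tree 1. Of the 78 genes, 66 fell short of 10 counts in tree 1 alone, 2 in tree 4 alone and 0 in tree 2 or tree 3 alone, and 10 reached 10 counts in all 4 trees. Only 6 of the 78 genes were among the genes tested. The filter on low counts needs 4 libraries and scales its minimum of 10 counts to the library total, and 4 of the 10 genes with 10 counts in all 4 trees fell short after this scaling. In a fit with no filter, which called 15.7% of its genes higher on the outer and 12.4% on the inner side, all 78 were called higher in outer bark, and the 3 inner genes higher in inner bark (edgeR, adjusted p below 0.05). The genes were chosen by their counts in these libraries, so these calls are given as a description.

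**Figure D2:**
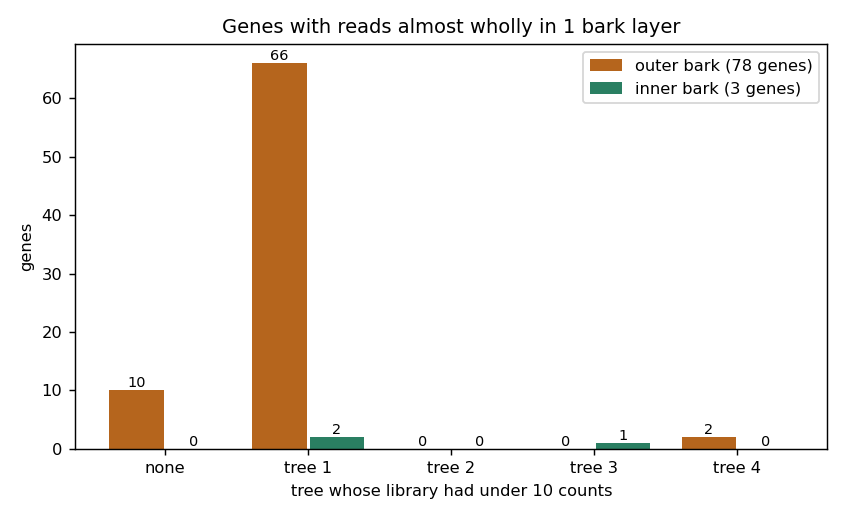
Bars count the genes with at least 10 counts in at least 3 libraries of one layer and at most 3 counts over the other layer, by the tree, if any, whose library fell short of 10 counts; brown is outer and green is inner bark. Of the 78 outer genes, 66 fell short in tree 1.

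The filter also moved the counts of calls. With the same minimum count needed in 3 libraries instead of 4, 5183 outer-higher and 4219 inner-higher genes were called, 20.0% and 16.2% of 25968 tested. This setting was added after the data had been seen. It called 343 outer-higher genes that had not been tested before, of which 264 had at least 10 counts in the outer bark of trees 2, 3 and 4 and fewer in tree 1. On the inner side it added 142 such genes, of which 81 had this pattern in inner bark. Calls also changed among genes tested before: 287 outer-higher genes were gained and 1 lost, and 17 inner-higher genes were gained and 361 lost. The median log2 fold change over all genes of that fit was 0.026, against 0.002 in the fit reported. With a filter of at least 1 CPM in at least 4 libraries it was 0.023, and 54.3% of calls were higher in outer bark.

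Whether the layer difference held from tree to tree was examined with trees that took no part in the calls. Genes were called in 3 trees, and their outer to inner ratio was then read in the tree left out. Without tree 2, 3 or 4 the outer calls made up 13.0%, 13.2% and 14.4% of the genes tested and the inner calls 12.4%, 12.4% and 13.7%. Without tree 1 the shares were larger, 19.2% and 17.8%. With tree 2 left out, 3259 genes were called higher in outer bark, and 99.5% of them were higher in the outer bark of tree 2, against 50.2% of all genes tested in that fit. The shares for outer-higher genes were 98.5% in tree 3, 97.0% in tree 4 and 86.3% in tree 1, where 49.1%, 51.5% and 49.9% of all genes were higher in outer bark. For inner-higher genes 97.1% kept the direction in tree 2, 98.1% in tree 3, 97.9% in tree 4 and 90.4% in tree 1. All 8 shares lay above the share of all genes with that direction, which was between 48.5% and 51.5%.

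In trees 2, 3 and 4 the size of the difference was close to the fitted one on the outer side. On the inner side it was smaller than fitted in trees 2 and 3 and larger in tree 4. The fits set against trees 2, 3 and 4 each included tree 1. Outer-higher genes had a median log2 ratio of 1.03 in tree 2, 0.95 in tree 3 and 1.01 in tree 4 when that tree was left out, where the other trees gave fitted medians of 1.02, 0.99 and 0.98. In tree 1 the median was 0.60 where the others gave 0.95. Inner-higher genes had medians of -1.04, -0.95 and -1.14 in trees 2, 3 and 4, where the others gave -1.22, -1.15 and -0.99, and -0.60 in tree 1 where the others gave -0.89. For genes called in the other 3 trees, tree 1 thus had the smaller ratios on both sides. Over all tested genes this was not so on the inner side, where 2520 genes were at least 2-fold higher in the inner bark of tree 1, against 2069 in tree 2, 2068 in tree 3 and 2700 in tree 4. A difference of at least 2-fold against the called direction was found in tree 1 for 102 of 4936 outer-higher and 22 of 4583 inner-higher genes. In each of the other trees it was found for at most 19 and 5 genes. Their lists were shorter, with at most 3608 and 3441 genes, and the lists do not hold the same genes.

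**Figure D3:**
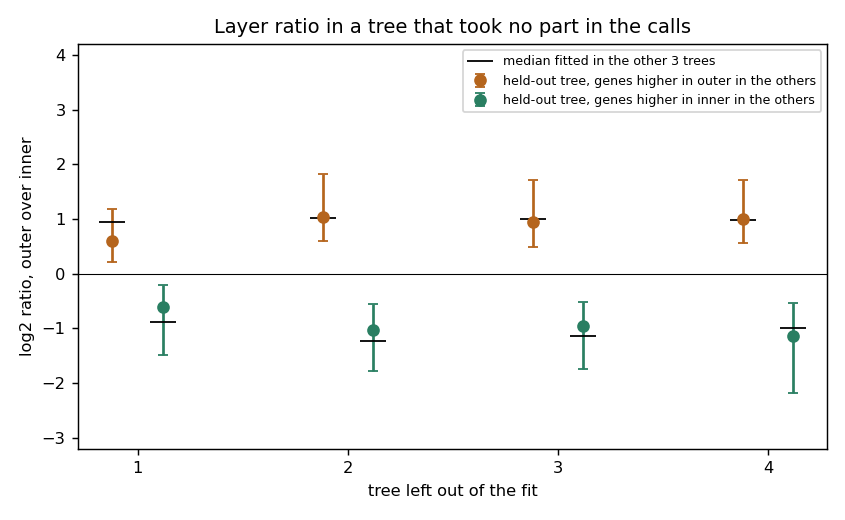
For each tree left out of the fit, points give the median log2 ratio of outer to inner CPM in that tree, with bars from the lower to the upper quartile over genes, for the genes called higher in outer (brown) or inner bark (green) from the other 3 trees; black dashes give the median fitted in those 3 trees. The medians of tree 1, 0.60 and -0.60, lie nearest to 0.

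Across the 25099 tested genes, the within-tree log2 ratios of trees 2, 3 and 4 correlated with each other at a Pearson r of 0.80 to 0.85 (Spearman rho 0.72 to 0.75), and those of tree 1 with the others at 0.65 to 0.66 (0.58 to 0.60). These are correlations across genes, which are not independent replicates, and the 2 values of each ratio share a tree. The ratio pointed to outer bark in all 4 trees for 6459 genes (25.7%) and to inner bark in all 4 trees for 6450 (25.7%). Tree 1 went against the other 3 by at least 2-fold on both sides for 36 genes, 27 of them higher in outer bark in the others. Trees 2 and 3 each did so for 1 gene and tree 4 for 9.

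Much of the spread between libraries lay between the numbered pairs, called trees here. A tree and any handling shared by its libraries cannot be told apart. Over the tested genes, the median share of the squared spread in log2 CPM was 12.4% between the layers and 72.0% between the trees. The median share remaining was 6.05%. Each median was taken separately over the genes, so the 3 do not add up to the whole. The tree part is a sum over 3 degrees of freedom and the layer part over 1. Per degree of freedom, the tree part was the larger one for 60.3% of the tested genes. Tree 1 alone held 57.0% of the squared spread between trees. With trees 2, 3 and 4 only, the medians were 34.6% for the layers and 43.1% for the trees, and the tree part was the larger one per degree of freedom (2 for these trees) for 42.5% of genes. The spread among trees was close to the same in both layers, with a median SD of 0.42 log2 units in outer and 0.41 in inner bark.

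**Figure D4:**
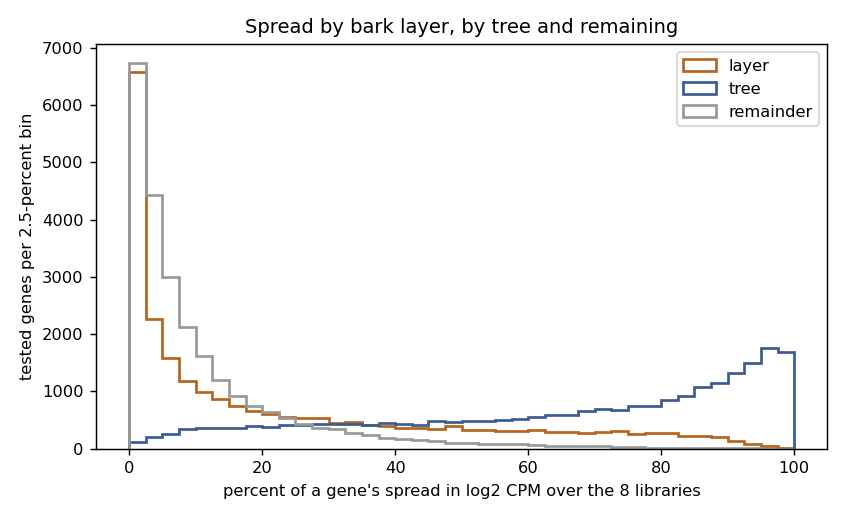
Lines show how many of the 25099 tested genes have a given percentage of their squared spread in log2 CPM between bark layers (brown), between trees (blue) or remaining (grey). The layer part has its peak near 0 and a median of 12.4%, and the tree part has a median of 72.0%.

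The count of calls depended on the pairing of the layers. When the trees were left out of the model, 1806 genes passed (edgeR, adjusted p below 0.05), 961 on the outer and 845 on the inner side, 3.83% and 3.37% of those tested. All 1806 were also called with the block, in the same direction. Complete separation of the layers implies the same direction in all 4 trees, so it could not be the more common. The 4 outer and 4 inner CPM values did not overlap for 1690 genes on the outer side and 1748 on the inner side. These were 6.73% and 6.96% of those tested, and 1596 and 1618 of them were called.

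By a rule on consistency, the genes with the largest smallest-tree difference among well-measured, non-overlapping calls were singled out, with at most 2 identifiers in each direction since no names are paired with them. The rule was met by 1002 outer-higher and 875 inner-higher genes. In 43 of the outer-higher and 49 of the inner-higher genes even the tree with the smallest difference reached 4-fold. The 4 identifiers named below come from the top of this ranking. They were picked by these same values, so their calls, shared direction and lack of overlap are given as a description.

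Potri.012G071400 led the outer side. In trees 1 to 4 it was at 13.1, 75.8, 53.9 and 35.0 CPM in outer bark and at 1.82, 5.45, 5.39 and 4.70 CPM in inner bark. Each outer value lay above each inner value, with tree 1 lowest in both layers. The outer level was 7.05-fold to 13.8-fold the inner level within a tree, and the fitted log2 fold change was 3.28 (edgeR adjusted p = 4.83e-05, higher in outer bark in 4 of 4 trees). The within-tree log2 ratio was 3.20 ± 0.45 (SD, n = 4).

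Potri.017G015800 followed a like course. In trees 1 to 4 it was at 13.4, 77.7, 57.8 and 29.1 CPM in outer bark and at 2.08, 9.40, 6.35 and 2.87 CPM in inner bark. The trees kept the same order in both layers, from tree 1 at the bottom to tree 2 at the top, and the layers did not overlap. Its fitted log2 fold change was 3.09 (edgeR adjusted p = 2.42e-05), with a within-tree log2 ratio of 3.05 ± 0.29 (SD, n = 4). Both genes had the same direction in tree 1 as in the others, with 179 and 183 counts in its outer library.

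On the inner side, Potri.010G196300 was at 21.1, 86.9, 21.8 and 42.9 CPM in the inner bark of trees 1 to 4 and at 0.511, 2.58, 3.06 and 4.11 CPM in outer bark. The lowest outer value, in tree 1, rests on 7 counts. The inner level was 7.04-fold the outer level in tree 3 and 38.6-fold in tree 1, the widest range of the 4 genes. Within-tree folds were taken from log2 CPM with a prior count of 0.5. At 7 counts the fold is therefore smaller than the ratio of the CPM values given. Its fitted log2 fold change was -3.95 (edgeR adjusted p = 0.000652, higher in inner bark in 4 of 4 trees), and the within-tree log2 ratio was -4.13 ± 1.22 (SD, n = 4).

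Potri.008G061800 was at 63.2, 26.2, 42.6 and 115.0 CPM in the inner bark of trees 1 to 4 and at 7.30, 3.55, 6.96 and 16.9 CPM in outer bark. Its level varied between trees by more than 4-fold in both layers, with tree 4 highest and tree 2 lowest in each, but the inner level was always between 6.09-fold and 8.63-fold the outer level. The fitted log2 fold change was -2.84 (edgeR adjusted p = 2.42e-05), and its within-tree log2 ratio of -2.84 ± 0.21 (SD, n = 4) had the smallest spread of the 4 genes. In the authors' deposited table, with its sign turned to outer minus inner, the log2 fold changes of the 4 genes were 3.36, 3.11, -4.06 and -2.81.

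**Figure D5:**
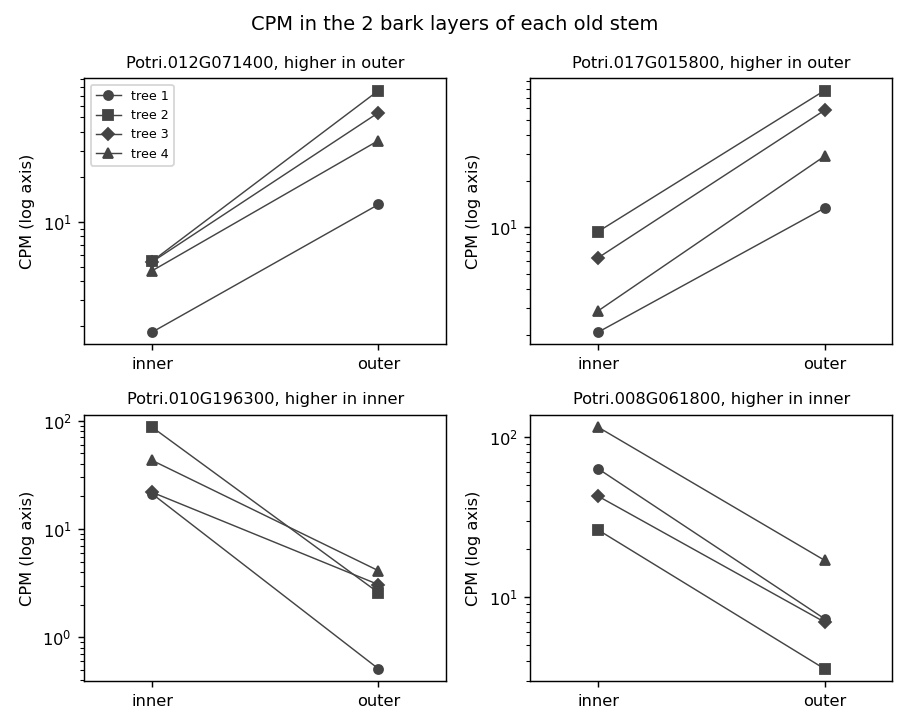
Points give the CPM, on a log axis, of 4 genes in the inner and outer bark of old trees 1 to 4, and each line joins the layers of 1 tree. All 4 lines of a panel run in the same direction, and for Potri.008G061800 they are close to parallel although the trees differ in level.

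By the edgeR adjusted p in the authors' deposited table for old stems, 1920 outer-higher genes passed 0.05, of which 1324 (69.0%) were called in the same direction here. On the inner side 1478 genes passed in the authors' deposited table, of which 1253 (84.8%) were called here. Seen from the other side, the shared genes made up 29.1% of the outer-higher and 28.3% of the inner-higher genes called here. No gene of the authors' deposited table was called in the opposite direction (0 genes). Only 1335 of the authors' outer-higher genes and 1259 of their inner-higher genes had been tested here. The 1324 and 1253 shared genes are nearly all of these. Both sets of calls rest on the same libraries and are no independent check. By the DESeq adjusted p of the authors' deposited table, fewer genes passed, 971 outer-higher and 717 inner-higher. The shares above use the authors' edgeR list only. Whether the authors' tests paired the layers was not examined.

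The identifiers carry a chromosome number and a running number along it, which allowed position to be described. Genes of both layers were found on all 19 chromosomes. The share of tested genes called higher in outer bark lay between 15.6% on chromosome 11 and 21.6% on chromosome 7, and the share higher in inner bark between 14.4% on chromosome 13 and 20.8% on chromosome 11. On unplaced scaffolds the shares were 15.2% and 14.1%.

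Genes that follow each other by number were compared without a test, since neighbours are not independent. Of 2984 outer-higher genes whose next-numbered gene had been tested, 23.7% had a next gene that was also higher in outer bark, against 18.4% over all 16396 such pairs. For 2884 inner-higher genes the share was 26.4%, against 17.8%. Among genes at least 4-fold higher, the next gene was also at least 4-fold higher in the same layer for 31 of 373 outer genes (8.31%, against 2.34% over all pairs) and for 52 of 451 inner genes (11.5%, against 2.76%). Runs of at least 3 such genes numbered 4 in outer bark, none longer than 3 genes, and 8 in inner bark, the longest of 5 genes. Neighbouring genes can be near-identical copies that share reads, and reads of overlapping genes on opposite strands were not told apart by the unstranded protocol. The part of either in these shares was not tested.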

How the data were processed

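RNA sequencing libraries of old outer and old inner bark (4 each) were analysed. The authors deposited raw read counts per gene, as the headers and the whole-number values show. Per the submitters' processing notes, HTSeq, TopHat, Bowtie, Cufflinks, CASAVA, Trimmomatic, edgeR and DESeq were used; their roles and versions and the genome build are not given in the sources used here. Strand was not kept, per the labels' protocols. The authors' deposited table for old stems holds log2 fold changes, log2 CPM and p-values, per the file headers; its raw counts equalled the count table in 100% of values. Its normalized columns and the 6 young libraries were not used. No per-sample column lacked a sample.

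Genes were filtered with filterByExpr (minimum count 10, in 4 libraries), scaled with TMM and fitted in edgeR 4.0.16 (R 4.3.3; quasi-likelihood F test, robust) with tree number as a block and layer as the contrast, leaving 3 residual degrees of freedom, moderated across genes. P-values were adjusted by Benjamini-Hochberg over 25099 genes, threshold 0.05. Log2 CPM used a prior count of 0.5. The block was kept because same-numbered libraries deviated together from the mean of their layer, with correlations across genes of 0.85, 0.65, 0.78 and 0.64 for trees 1 to 4, each library best with its own number. As the labels do not say that numbers are separate trees, the spread behind the p-values may be technical. No 2 libraries of a layer agreed within sampling noise (chi-square per degree of freedom at least 18.6).

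Symbols were identical to identifiers in 100% of genes and no reference came with the files, so lists by gene name could not be filled and none was tested. Genes were named by rule: called, mean log2 CPM of at least 3, no overlap between layers, same direction in all 4 trees, ranked by the smallest within-tree log2 ratio, first 2 in each direction. Members, lists and tests were chosen with earlier results of these data known. Alternatives were other scalings and filters, DESeq2 1.42.0, limma 3.58.1 (voom), no block, the tree as a random effect, a test against a 2-fold change and leaving out each tree; a filter needing 3 libraries was added after seeing the data. The fit was also run on simulated counts. These had few changed genes and the same spread for every tree, unlike the data, so this was a check of the computation only.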

Additional observations from a re-analysis of the deposited data

Results flagged for a closer look

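In 25 sets of 4 values, from the libraries, the named genes and the trees left out, 3 held 1 value far from the other 3. Chance gives about 1 in 20 such sets, and the sets share libraries. The total count of 11944485 in the inner bark of tree 4 was the lowest of the 4 inner libraries. The most abundant gene took 0.805% of the counts in the outer bark of tree 1, the highest of the 4 outer libraries. In inner bark this share was also highest in tree 1, at 1.08% against 0.350% to 0.504% in the other trees. That inner set was not among the 3. The share of inner-higher genes that kept their direction in the tree left out was lowest in tree 1, at 90.4%.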

How the results depend on the processing

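Counts of calls stayed within 1.5 times of those reported under RLE and upper-quartile scaling, no filter, the 1 CPM filter, the filter needing 3 libraries, DESeq2 and limma voom with the block, and the tree as a random effect, between 7948 and 9847 genes in all. With no replicate block, 1806 genes passed, 961 outer-higher and 845 inner-higher; this fit treats all 8 libraries as independent. The test against a 2-fold change gave 2066, 1029 and 1037. Leaving out 1 tree gave 6368 to 9519 genes in all, 3259 to 4936 outer-higher and 3099 to 4583 inner-higher; with the block, leaving out 1 library drops its partner too. More genes were higher in inner than in outer bark under upper-quartile scaling, with the tree as a random effect (3886 outer, 4262 inner) and in the test against a 2-fold change. With no filter 55.8% of calls were higher in outer bark. The 1 CPM filter gave 4696 outer-higher and 3948 inner-higher genes. The 4 named genes kept direction and call in all 13 alternatives run on them. The highest adjusted p was 0.0317, in edgeR with no replicate block. These genes were picked for consistent calls in the same libraries, so this is a description. Their log2 fold changes ranged from 3.06 to 3.42 for Potri.012G071400, 3.03 to 3.17 for Potri.017G015800, -4.38 to -3.53 for Potri.010G196300 and -2.91 to -2.75 for Potri.008G061800. Scarce genes limit the large fold changes, since few counts in the lower layer decide them.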
